A study of Mus musculus with 12 samples.

Results

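Genes of iron transport, iron storage and metal buffering were followed across 4 groups of 3T3 cells, a mouse fibroblast line, in bulk RNA sequencing. The members were 10 genes picked by symbol: Slc40a1, Tfrc, Fth1, Ftl1, Slc11a2, Ireb2, Slc39a14, Ncoa4, Mt1 and Mt2. All 10 were among the 32544 rows of the table, and all 10 passed the filter on low counts, which left 14279 genes. Library columns headed only with the name CRIPTO were taken as CrOE by elimination, because shCr has columns of its own. The set was built around Slc40a1, because its level was among the largest falls with vesicles from CRIPTO-depleted cells against control vesicles. That comparison is therefore given below as a description, without a test. Each group had 3 libraries. One group was untreated, and the other groups were kept for 24 h with extracellular vesicles (EVs) shed by MDA-MB-468, an established line of human breast cancer cells. The EVs came from control cells (shCon), cells with CRIPTO knocked down (shCr) or cells overexpressing CRIPTO (CrOE). CRIPTO is a protein of the cell surface. No group had EVs of a separate control line for overexpression. In comparisons with CrOE EVs, the CRIPTO level and other differences of that donor line therefore cannot be told apart. Nothing in the labels says that the 3 libraries of a group came from separate cultures or EV preparations, so p-values measure only the spread between these libraries, which may be technical.

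Cells take up transferrin-bound iron through the transferrin receptor (Tfrc) and move ferrous iron out of endosomes through DMT1 (Slc11a2). ZIP14 (Slc39a14) carries iron not bound to transferrin, as well as zinc and manganese. Iron that is not used is stored in ferritin, a shell of heavy chains (Fth1), which oxidise iron, and light chains (Ftl1), which help to form the mineral core. NCOA4 takes ferritin to the lysosome, where its iron is released, and ferroportin (Slc40a1) is the known exporter of iron from mammalian cells. When iron is scarce, iron regulatory proteins, among them IRP2 (Ireb2), bind stem-loops called iron-responsive elements (IREs). Binding in a 5′ untranslated region (UTR) blocks translation of ferritin and ferroportin, and binding in the 3′ UTR protects the Tfrc transcript from decay. Metallothioneins (Mt1, Mt2) are small cysteine-rich proteins that bind zinc and copper, and the zinc sensor MTF1 drives their transcription through metal response elements.

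The IREs are shown because this control acts through them. Transcripts in GENCODE M21 (mouse, GRCm38) were searched for a CAGTGN loop closed by 5 base pairs, G-T pairs allowed, with an unpaired C before the stem. Such a stem-loop was found in a UTR of 4 of the 10 members, and in a UTR of 0.731% of 21877 protein-coding gene symbols. Capitals mark the first 5 bases of the loop, each window has 29 bases, and the sequences read 5′ to 3′ along the transcript.
Slc40a1, 5′ UTR: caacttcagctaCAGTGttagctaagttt
Fth1, 5′ UTR: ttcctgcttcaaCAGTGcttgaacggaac
Ftl1, 5′ UTR: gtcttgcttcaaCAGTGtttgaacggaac
Tfrc, 3′ UTR, site nearest the coding sequence: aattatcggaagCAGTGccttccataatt
Tfrc, 3′ UTR, next site: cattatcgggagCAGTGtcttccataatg
Tfrc, 3′ UTR, next site: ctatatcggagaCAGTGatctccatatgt
Tfrc, 3′ UTR, last site: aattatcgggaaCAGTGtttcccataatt
In GRCm38 the Slc40a1 window lies at chr1:45925465-45925493 on the minus strand, the Fth1 window at chr19:9982732-9982760 on the plus strand and the Ftl1 window at chr7:45459779-45459807 on the minus strand. The 4 Tfrc windows lie on the plus strand at chr16:32631219-32631247, chr16:32631598-32631626, chr16:32631663-32631691 and chr16:32631710-32631738. No match was found in the other 6 members, Slc11a2 among them, which says only that no sequence met this pattern in the annotated transcripts. An IRE with another loop or an imperfect stem would be missed, so the search does not place these members outside this control. The files hold RNA levels per gene, so translation of these transcripts was not measured.

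Library totals ranged from 25960054 to 37774020 estimated counts, and the 10 members together held 0.705% to 0.855% of a library. The mouse Cripto gene, Tdgf1, had 0 to 3 counts in every library. The manipulation was made in the human donor cells, so these libraries hold no check of it. Whether RNA from the human EVs adds to the counts of mouse genes was not tested. All 10 fibroblast markers examined were detected in every group, and their summed level was 9320 to 9750 CPM with CrOE EVs, against 21300 to 22900 in untreated cells, 26400 to 26700 with shCon EVs and 16900 to 19000 with shCr EVs. Of the 8 epithelial markers, Epcam was at 0 in all 12 libraries. Their sum was 2.47 to 3.49 CPM with CrOE EVs and 1.00 to 1.95 CPM in the other groups, where Cldn4 (1.15 CPM on average with CrOE EVs) was at most 0.0302 CPM. In bulk RNA, fewer cells of a type and less RNA per cell cannot be told apart. The share of mitochondrially encoded RNA differed within groups, from 0.495% to 1.64% among untreated libraries, 0.622% to 1.70% among shCr EV libraries and 0.693% to 1.44% among CrOE EV libraries. The unit CPM is a count divided by library size, here after scaling between libraries by the trimmed mean of M-values (TMM), so each level is relative to the other RNA of that library.

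CrOE EVs were followed by the widest change in these genes. Against untreated cells, Tfrc, Slc11a2 and Slc40a1 rose, the carrier gene Slc39a14 fell, the ferritin light chain rose while the heavy chain fell, and both metallothioneins fell to less than 0.5 of their untreated level. Slc11a2 and Ftl1 rose and Slc39a14 fell after EVs of each of the 3 kinds. A gene was called when its adjusted p in edgeR's quasi-likelihood test, Benjamini-Hochberg over all genes tested, was under 0.05. After shCon EVs 5 of the 9 members tested differed from untreated cells by this rule (2 higher and 3 lower), where 38.1% of all genes tested were called (18.0% higher and 20.2% lower). After shCr EVs 3 of 9 were called (2 higher and 1 lower), beside 37.3% of all genes (18.4% higher and 18.8% lower). After CrOE EVs 9 of 10 were called (5 higher and 4 lower), beside 73.7% of all genes (36.7% higher and 37.0% lower), so a call by itself says little about these genes in that comparison. CrOE EVs also gave 7 calls of 9 against shCon EVs (3 higher and 4 lower; 72.6% of all genes, 36.5% higher and 36.1% lower) and 6 of 9 against shCr EVs (3 higher and 3 lower; 73.9%, 36.9% higher and 37.0% lower). Libraries did not overlap with untreated ones for 9 of 10 members in the CrOE EV group (77.7% of all genes), 8 in the shCon EV group (54.2%) and 4 in the shCr EV group (41.9%). Between CrOE and shCon EVs this held for 10 of 10 (80.5% of all genes) and between CrOE and shCr EVs for 7 (74.0%). Slc40a1 is in each of these counts of libraries without overlap, although its choice rested on shCon and shCr EV libraries. A change of at least 2-fold was also asked for. With shCon EVs 0 of the 9 members tested were then called (6.04% of all genes), and with shCr EVs 1 of 9 (6.28%). With CrOE EVs it was 6 of 10 (29.7%). Between CrOE and shCon EVs it was 3 of 9 (27.2%), and between CrOE and shCr EVs 3 of 9 (29.6%). The member not tested where 9 were was Slc40a1. Its change exceeded 2-fold with shCon EVs (log2 fold change 2.59) and between CrOE and shCr EVs (1.496). The median absolute log2 fold change of the 10 genes was 1.12 after CrOE EVs and 0.597 over all genes tested, 0.289 and 0.231 after shCon EVs, and 0.129 and 0.223 after shCr EVs. Signed medians of the 10 genes were -0.105, 0.0213 and 0.18 with shCon, shCr and CrOE EVs, and those of all genes were 0.00694, 0.0199 and 0.00775.

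**Figure D1:**
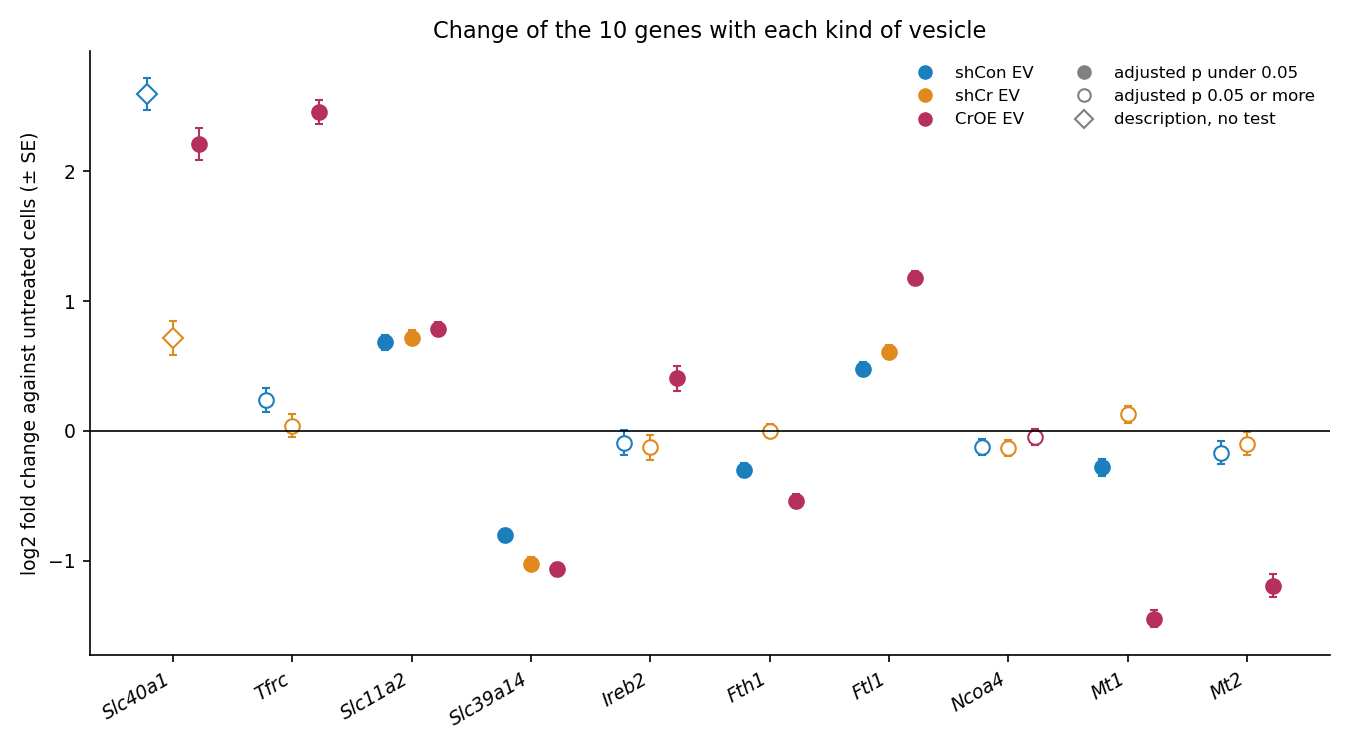
Log2 fold change against untreated cells with its standard error (y axis) for each of the 10 genes (x axis) after shCon, shCr and CrOE EVs. Filled circles had an adjusted p under 0.05, open circles did not, and diamonds were not tested; Tfrc stands at 2.46 after CrOE EVs and near 0 after shCr EVs.

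Slc40a1, which encodes ferroportin, was the least abundant member in every group, by CPM per length of transcript. It was at 2.05, 1.87 and 1.99 CPM in untreated replicates 1 to 3, from 49 to 56 counts, and at 12.8, 11.8 and 11.2 CPM after shCon EVs. After shCr EVs it was at 3.45, 3.20 and 3.07 CPM, and after CrOE EVs at 9.13, 10.4 and 7.89 CPM. The groups did not overlap, and the order from lowest to highest was untreated, shCr EV, CrOE EV and shCon EV, with means of 1.97 ± 0.0927, 3.24 ± 0.193, 9.14 ± 1.25 and 11.9 ± 0.810 CPM (SD, n = 3 each). The choice of this gene rested on shCon and shCr EV libraries. Their spread still enters the test given here, since the model was fitted to all 12 libraries. After CrOE EVs Slc40a1 was 4.63-fold higher than in untreated cells (log2 fold change 2.21, SE 0.12, adjusted p = 2.99e-09, edgeR's quasi-likelihood test). Its size there exceeded that of 90.2% of all genes tested. As a description, its log2 fold change against untreated cells was 2.59 (SE 0.12) after shCon EVs and 0.72 (SE 0.13) after shCr EVs. CrOE EVs left it slightly below shCon EVs (log2 fold change -0.38, SE 0.10) and above shCr EVs (1.496, SE 0.11).

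Ferroportin is abundant in macrophages, so the markers of that cell type are given beside it. Of 8 macrophage markers, 6 had over 3 counts in a library of every group. Their summed level was highest with shCr EVs, at 173 to 246 CPM, and lowest with CrOE EVs, at 32.7 to 38.3 CPM. It was 129 to 141 CPM in untreated cells and 123 to 134 CPM with shCon EVs. Most of the sum came from Lyz2, at 46.9, 78.0, 146 and 1.25 CPM on average in untreated, shCon EV, shCr EV and CrOE EV cells, and Cd14, at 78.3, 41.7, 48.1 and 30.5 CPM. Cd68 was at 5.64, 5.6, 5.56 and 3.05 CPM and Csf1r at 2.43, 2.11, 2.2 and 1 CPM on average in the same order. Itgam was at 0.166 to 0.332 CPM and the pan-leukocyte gene Ptprc at 0.0711 to 0.130 CPM on average in the 4 groups. The macrophage gene Adgre1 and the myeloid gene Tyrobp were at or near 0. The 6 endothelial markers summed to 17.4 to 20.2 CPM with CrOE EVs, and to 2.21 to 3.15 CPM in untreated cells, 5.48 to 6.20 with shCon EVs and 4.23 to 5.57 with shCr EVs. Most of that sum was Vwf, at 16.0 CPM on average with CrOE EVs and 1.82 CPM in untreated cells, while the other 5 were at most 1.18 CPM. Single markers are named here after their values were seen. The part of these markers in the levels of Slc40a1 was not tested.

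**Figure D2:**
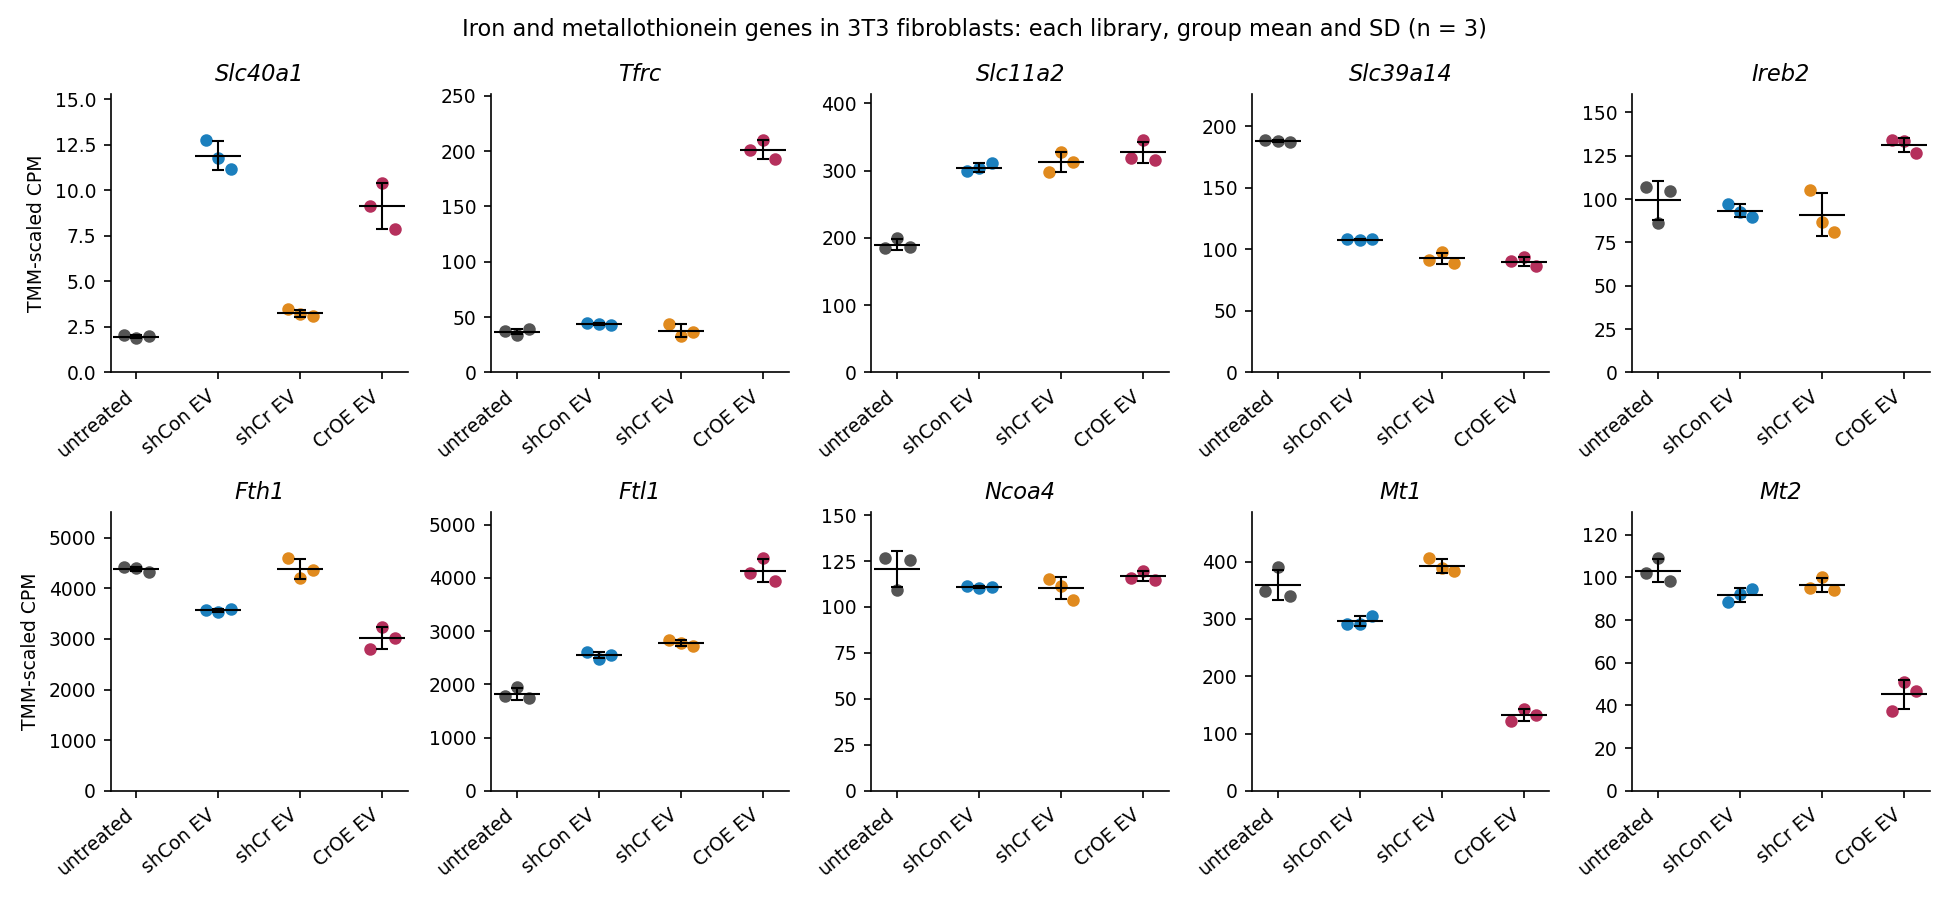
Level of each of the 10 genes in TMM-scaled CPM (y axes, each from 0) in the untreated, shCon EV, shCr EV and CrOE EV groups (x axes). Points are libraries, and bars are group means with SD (n = 3); the CrOE EV points of Tfrc, at 193 to 210 CPM, stand above all other libraries, and those of Mt1 and Mt2 below them.

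Tfrc, the transferrin receptor, rose with CrOE EVs. It was at 37.2, 34.1 and 38.7 CPM in untreated replicates 1 to 3 and at 201, 210.2 and 193 CPM after CrOE EVs. After shCon EVs it was at 44.2, 43.3 and 42.4 CPM, and after shCr EVs at 44.1, 32.7 and 36.5 CPM. The CrOE EV libraries were far above the other 9, whose highest value was 44.2 CPM. The rise after CrOE EVs was 5.49-fold (log2 fold change 2.46, SE 0.09, adjusted p = 6.87e-11, edgeR), a change larger in size than that of 91.8% of all genes tested. Tfrc was also higher after CrOE EVs than after shCon EVs (log2 fold change 2.22, SE 0.09, adjusted p = 1.97e-10, edgeR) and shCr EVs (2.42, SE 0.09, adjusted p = 7.61e-11). After shCon EVs the log2 fold change against untreated cells was 0.24 (SE 0.09, adjusted p = 0.0547, edgeR), just short of a call although the 2 groups did not overlap. Most other ways of processing made that value a call, as the closing section gives. Among fits with a library left out, only those without shCr EV replicate 1 (adjusted p = 0.00438, edgeR) or 2 (0.026) did so. After shCr EVs it was 0.04 (95% interval -0.17 to 0.25, adjusted p = 0.752, edgeR). All Tfrc values were within 0.01 of a whole number, and none of its 31-base stretches occurs in another gene of GENCODE M21. Its shCr EV replicate 1, the highest of that group, had the lowest mitochondrial share there, and the part of that share was not tested.

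Slc11a2 and Slc39a14, both carriers of divalent metals, moved in opposite directions with EVs of all 3 kinds. Slc11a2, which encodes DMT1, was at 185, 199 and 186 CPM in untreated replicates 1 to 3 and at 299, 303 and 312 CPM after shCon EVs. It was at 298, 328 and 312 CPM with shCr EVs and at 319, 346 and 317 CPM with CrOE EVs. All 9 EV libraries lay above the untreated ones. The log2 fold changes were 0.68 with shCon EVs (SE 0.06, adjusted p = 1.05e-06, edgeR), 0.72 with shCr EVs (SE 0.06, adjusted p = 5.94e-07) and 0.78 with CrOE EVs (SE 0.06, adjusted p = 3.16e-08). Slc11a2 was no call between CrOE and shCon EVs (0.10, 95% interval -0.02 to 0.23, adjusted p = 0.107, edgeR, although the libraries did not overlap) or between CrOE and shCr EVs (0.07, 95% interval -0.06 to 0.19, adjusted p = 0.297). Exons of Slc11a2 overlap those of Gm5475 on the opposite strand, which held 7 to 46 counts in a library where Slc11a2 held 5048 to 11883.

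Slc39a14, which encodes ZIP14, was tightly spread in untreated cells, at 189, 188 and 187 CPM. It was at 108, 107 and 108 CPM after shCon EVs, at 91.3, 97.5 and 89.2 CPM after shCr EVs and at 90.1, 93.3 and 86.1 CPM after CrOE EVs. No EV library reached the untreated range. Its log2 fold changes were -0.80 with shCon EVs (SE 0.05, adjusted p = 8.82e-08, edgeR), -1.02 with shCr EVs (SE 0.05, adjusted p = 1.06e-08) and -1.07 with CrOE EVs (SE 0.05, adjusted p = 4.37e-10). Slc39a14 was lower after CrOE than after shCon EVs (-0.26, SE 0.05, adjusted p = 0.000305, edgeR) and was no call between CrOE and shCr EVs (-0.04, 95% interval -0.16 to 0.07, adjusted p = 0.421).

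The ferritin chains parted from each other. Fth1, the heavy chain, was at 4415, 4395 and 4331 CPM in untreated replicates 1 to 3 and at 3566, 3527 and 3598 CPM after shCon EVs. It was at 4589.6, 4207 and 4354 CPM after shCr EVs, within reach of the untreated libraries, and at 2798, 3229 and 3027.5 CPM after CrOE EVs. It fell after shCon EVs (log2 fold change -0.30, SE 0.05, adjusted p = 0.000954, edgeR) and after CrOE EVs (-0.54, SE 0.05, adjusted p = 1.3e-06). After shCr EVs its log2 fold change was 0.00098 (95% interval -0.13 to 0.13, adjusted p = 0.992, edgeR).

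Ftl1, the light chain, was at 1777, 1956 and 1750.2 CPM in untreated replicates 1 to 3. It was at 2607, 2487 and 2553 CPM after shCon EVs, at 2835.5, 2781 and 2727 CPM with shCr EVs and at 4092, 4367 and 3947 CPM with CrOE EVs. Every EV library was above every untreated one, and every CrOE EV library was above every other library. Ftl1 rose after shCon EVs (log2 fold change 0.48, SE 0.06, adjusted p = 2.34e-05, edgeR), shCr EVs (0.61, SE 0.06, adjusted p = 2.82e-06) and CrOE EVs (1.18, SE 0.06, adjusted p = 6.14e-10). It was higher after CrOE EVs than after shCon EVs (0.70, SE 0.06, adjusted p = 1.14e-07, edgeR) and shCr EVs (0.57, SE 0.06, adjusted p = 7.16e-07). Fth1 was lower after CrOE EVs in the same comparisons (-0.24, SE 0.05, adjusted p = 0.00156, and -0.54, SE 0.05, adjusted p = 1.25e-06).

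The ratio of heavy to light chain counts within a library shows the shift directly, since gene length cancels when groups are compared. The ratio of Fth1 to Ftl1 was 2.40 ± 0.135 in untreated cells (SD, n = 3), 1.40 ± 0.0267 with shCon EVs, 1.58 ± 0.0559 with shCr EVs and 0.730 ± 0.0424 with CrOE EVs. No 2 of the 4 groups overlapped; with 3 libraries a group, an exact 2-sided permutation test of a single ratio cannot go below p = 0.10. The summed CPM of the 2 chains moved less, at 6208 ± 135, 6112 ± 85.8, 7164.5 ± 230 and 7153 ± 386 in the same order of groups. Reads shared with near-identical genes make the counts of Ftl1 less certain than those of Fth1. Of the 31-base stretches of Ftl1, 57.7% occur in other genes of GENCODE M21, led by Ftl1-ps1 and Gm15590, against 3.24% for Fth1, and all 12 Ftl1 values were more than 0.01 away from a whole number, against 1 of 12 for Fth1. The row of Gm15590 held 59.6 to 187 estimated counts, where Ftl1 held 47574 to 150111. Exons of Ftl1 also overlap those of Gm10252 on the opposite strand, and whether strand was used in counting is not given in the sources used here.

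**Figure D3:**
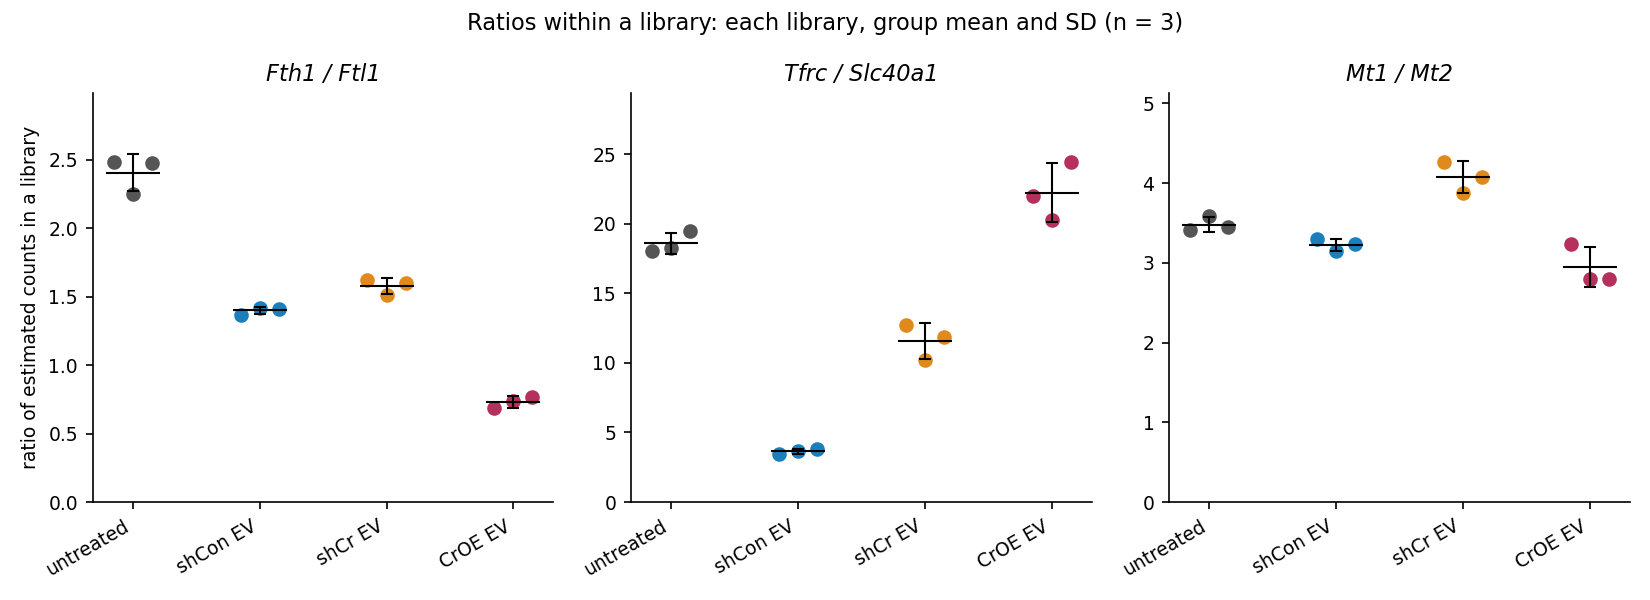
Ratio of estimated counts of 2 genes within a library (y axes, each from 0) for Fth1 over Ftl1, Tfrc over Slc40a1 and Mt1 over Mt2 in the 4 groups (x axes). Points are libraries and bars are group means with SD (n = 3); the ratio of Fth1 to Ftl1 was 2.25 to 2.49 in untreated cells and 0.684 to 0.767 after CrOE EVs.

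The uptake receptor and the exporter did not keep a fixed ratio either. Tfrc over Slc40a1 was 18.6 ± 0.764 in untreated cells (SD, n = 3), 3.64 ± 0.170 with shCon EVs, 11.6 ± 1.29 with shCr EVs and 22.2 ± 2.12 with CrOE EVs. The lowest ratio, after shCon EVs, went with the highest Slc40a1, and after CrOE EVs, where both genes were higher, the ratio was nearest to the untreated one. Untreated and CrOE EV ratios, at 18.1 to 19.5 and 20.2 to 24.5, did not overlap.

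Ncoa4, the receptor that delivers ferritin to lysosomes, was no call in any of the 5 comparisons tested. It was at 126, 109 and 126 CPM in untreated replicates 1 to 3, and group means were 120.4 ± 9.78, 111 ± 0.601, 110.1 ± 5.98 and 117 ± 2.67 CPM (SD, n = 3) in untreated, shCon EV, shCr EV and CrOE EV cells. Its log2 fold changes against untreated cells were -0.12 with shCon EVs (95% interval -0.26 to 0.02, adjusted p = 0.143, edgeR), -0.13 with shCr EVs (-0.27 to 0.01, adjusted p = 0.123) and -0.05 with CrOE EVs (-0.19 to 0.10, adjusted p = 0.522). Untreated replicate 2, the untreated library with the largest mitochondrial share (1.64%), was the lowest. Without it the values after shCon and shCr EVs were calls (log2 fold change -0.18, adjusted p = 0.0175, and -0.20, adjusted p = 0.0121, edgeR), and the latter was also a call without shCr EV replicate 1 (adjusted p = 0.0359). Of the 31-base stretches of Ncoa4, 18.8% occur in other genes.

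Ireb2, which encodes IRP2, rose with CrOE EVs. It was at 107, 86.0 and 104 CPM in untreated replicates 1 to 3, at 97.3, 92.7 and 89.8 CPM after shCon EVs, at 105, 87.0 and 81.1 CPM with shCr EVs and at 134, 133 and 126 CPM with CrOE EVs. The CrOE EV libraries were above the other 9, which overlapped with each other. The rise was 1.32-fold against untreated cells (log2 fold change 0.40, SE 0.10, adjusted p = 0.00203, edgeR). It was 0.49 on the log2 scale against shCon EVs (SE 0.10, adjusted p = 0.000481) and 0.53 against shCr EVs (SE 0.10, adjusted p = 0.000259). The sizes were modest for these comparisons, since 36.2%, 44.8% and 45.2% of all genes tested changed less. After shCon and shCr EVs Ireb2 was no call (log2 fold change -0.09, adjusted p = 0.504, and -0.12, adjusted p = 0.343, edgeR). Without shCr EV replicate 1, the shCr EV library with the lowest mitochondrial share (0.622%), the latter was a call (-0.24, adjusted p = 0.023), and the part of that share in the difference was not tested.

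The levels of Aco1 and Fbxl5, also genes of this control, fell after CrOE EVs. Aco1, the cytosolic aconitase that becomes IRP1 when it loses its iron-sulfur cluster, fell from 129 ± 5.27 to 80.3 ± 1.19 CPM (SD, n = 3; change on the log2 scale -0.69, SE 0.06, adjusted p = 1.17e-07, edgeR). Fbxl5, which marks IRP2 for degradation when iron is present, was at 79.1 ± 3.15 and 60.7 ± 1.35 CPM (-0.38, SE 0.08, adjusted p = 0.00114). Neither was called after shCon EVs (adjusted p = 0.907 and 0.535, edgeR) or shCr EVs (0.602 and 0.968).

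The metallothioneins fell together with CrOE EVs. Mt1 was at 348, 389.8 and 339 CPM in untreated replicates 1 to 3, at 291, 290.3 and 306 CPM after shCon EVs, at 405, 388 and 383 CPM with shCr EVs and at 122, 143 and 132 CPM with CrOE EVs. Mt2 was at 102, 109 and 98.4 CPM in untreated cells, at 88.4, 92.3 and 94.6 CPM after shCon EVs, at 95.0, 100.2 and 94.0 CPM after shCr EVs and at 37.5, 51.0 and 47.0 CPM after CrOE EVs. For both genes the CrOE EV libraries were below the other 9. Mt1 fell 2.72-fold against untreated cells (log2 fold change -1.44, SE 0.07, adjusted p = 6.32e-10, edgeR) and Mt2 2.28-fold (-1.19, SE 0.09, adjusted p = 7.29e-08). Against shCon EVs the values were -1.16 (SE 0.07, adjusted p = 5.64e-09, edgeR) and -1.02 (SE 0.09, adjusted p = 3.57e-07). Against shCr EVs they were -1.57 (SE 0.07, adjusted p = 2.77e-10) and -1.09 (SE 0.09, adjusted p = 1.62e-07).

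After the other EVs the metallothioneins moved little. Mt1 fell after shCon EVs (log2 fold change -0.28, SE 0.07, adjusted p = 0.00554, edgeR), and Mt2 was no call (-0.17, 95% interval -0.37 to 0.04, adjusted p = 0.159) unless CrOE EV replicate 1 was left out of the model (adjusted p = 0.0418). After shCr EVs neither was called (0.13, adjusted p = 0.159 for Mt1, and -0.10, adjusted p = 0.423 for Mt2). Without untreated replicate 2, the highest untreated library of Mt1, its value after shCr EVs was a call (0.19, adjusted p = 0.0388, edgeR). The ratio of Mt1 to Mt2 was 3.48 ± 0.0905 in untreated cells, 3.22 ± 0.0753 with shCon EVs, 4.08 ± 0.197 with shCr EVs and 2.95 ± 0.255 with CrOE EVs (SD, n = 3). The other metallothioneins of the mouse, Mt3 and Mt4, had at most 3 counts in a library. Exons of Mt2 overlap those of Gm45774 on the opposite strand.

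Because Mt1 and Mt2 fell together, the 250 bases before the start that RefSeq annotates for each are shown (GRCm38.p6, plus strand). Capitals mark the core of the metal response element, TGCACNC or TGCGCNC on either strand.
Mt1, chr8:94178839-94179088: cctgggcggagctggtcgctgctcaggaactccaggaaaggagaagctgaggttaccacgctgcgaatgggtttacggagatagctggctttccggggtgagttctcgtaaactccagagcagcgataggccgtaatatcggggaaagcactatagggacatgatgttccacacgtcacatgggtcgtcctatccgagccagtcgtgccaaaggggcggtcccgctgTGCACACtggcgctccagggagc
Mt2, chr8:94172368-94172617: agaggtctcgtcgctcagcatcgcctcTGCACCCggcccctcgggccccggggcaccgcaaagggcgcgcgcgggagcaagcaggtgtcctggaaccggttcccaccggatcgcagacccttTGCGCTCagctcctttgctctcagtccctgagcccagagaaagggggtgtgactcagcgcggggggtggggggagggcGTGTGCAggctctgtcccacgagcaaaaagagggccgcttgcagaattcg
The Mt1 window held 1 match, 23 bases before the start, and the Mt2 window held 3, at 223, 128 and 50 bases before it. Of 32851 windows of that length before RefSeq starts, 21.4% held at least 1 match and 1.26% at least 3. Of the 10 members, 7 had a window in this collection. Tfrc had 2 overlapping matches in the first of its windows, Ncoa4 had 1 match in 1 of its windows, and Fth1, Ftl1 and Ireb2 had none. Bases past these annotated starts were not searched, so the counts hold for these windows and not for a whole promoter. A match describes the letters only, and binding of MTF1 was not measured.

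The regulator and another target of it did not fall with the metallothioneins. Mtf1 rose from 24.6 ± 1.12 to 31.9 ± 1.14 CPM (SD, n = 3; change on the log2 scale 0.37, SE 0.07, adjusted p = 0.000469, edgeR). Slc30a1, a zinc exporter that MTF1 also drives, was at 9.23, 11.1 and 10.4 CPM in untreated replicates 1 to 3, and CrOE EVs left it at 10.9, 12.3 and 12.6 CPM. These overlap, and the call was a narrow one (log2 fold change 0.22, SE 0.09, adjusted p = 0.0463, edgeR). After shCon EVs Slc30a1 fell (-0.40, SE 0.10, adjusted p = 0.00633).

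The set was drawn from the comparison of shCr with shCon EVs, so the values below are a description. Slc40a1 was 3.68-fold lower with shCr EVs (log2 fold change -1.88, SE 0.11). From the lowest fold change it ranked 35 of the 14279 genes tested, and 3 among the 11565 whose average log2 CPM reached 1. Mt1 was higher with shCr EVs (0.41, SE 0.07), as was Fth1 (0.30, SE 0.05), and for both the libraries of the 2 groups did not overlap. Ftl1 (0.13, SE 0.05) and Slc39a14 (-0.22, SE 0.05) also had no overlap. Tfrc, Slc11a2, Ireb2, Ncoa4 and Mt2 overlapped, with log2 fold changes between -0.20 and 0.07. The lowest of these, that of Tfrc, was -0.33 without shCr EV replicate 1. Without overlap were 5 of the 10 genes, beside 28.0% of all genes tested, and 8.73% of all genes were called in this comparison. Slc40a1 is among the 5 and was chosen for its fall here, so this count is a description too.

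Genes that work with the members were taken from 9 lists of iron, heme, iron-sulfur, zinc and copper handling, 134 genes in all, of which 113 were tested. Against untreated cells, CrOE EVs gave 91 calls among the 113 (46 higher and 45 lower; 80.5%, beside 73.7% of all genes). There were 48 with shCon EVs (25 higher and 23 lower; 42.5%, beside 38.1%) and 42 with shCr EVs (30 higher and 12 lower; 37.2%, beside 37.3%). No list moved in a single direction after CrOE EVs.

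Iron uptake and reduction genes went both ways after CrOE EVs. Of the 15 tested, 6 were called higher and 7 lower (median log2 fold change -0.26, all genes 0.00775). The largest fall was that of Scara5, a ferritin receptor, from 111 to 4.05 CPM on average (log2 fold change -4.77, SE 0.11, adjusted p = 6.81e-13, edgeR). The largest rise was that of Slc25a37, mitoferrin-1, from 69.0 to 170 CPM (1.30, SE 0.23, adjusted p = 0.000219). Lcn2, a siderophore-binding protein, had the largest fall after shCon EVs (-1.36, adjusted p = 6.45e-07, edgeR) and after shCr EVs (-0.94, adjusted p = 1.4e-05). In the export and hepcidin list 2 of 7 were called higher and 5 lower after CrOE EVs (median -0.68). Cp, the ferroxidase ceruloplasmin that works with ferroportin, fell from 577 to 96.0 CPM (-2.59, SE 0.06, adjusted p = 1.5e-12), and the largest rise was that of Rnf217, a ubiquitin ligase for ferroportin (0.56, SE 0.06, adjusted p = 2.01e-06). Hamp, which encodes hepcidin, the hormone that removes ferroportin, did not pass the filter.

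Among other transcripts reported to carry an IRE, 2 of 6 were called higher and 4 lower after CrOE EVs (median log2 fold change -0.57). Epas1, the hypoxia factor HIF-2 alpha, fell from 39.1 to 1.18 CPM (-5.05, SE 0.16, adjusted p = 1.12e-11, edgeR), was lower after shCon EVs (-0.67, adjusted p = 0.000519) and was higher after shCr EVs (0.47, adjusted p = 0.00452). The largest rise after CrOE EVs was that of the kinase gene Cdc42bpa (0.59, SE 0.11, adjusted p = 0.000368, edgeR). In the list of IRP control and iron chaperones 3 of 12 were called higher and 5 lower after CrOE EVs (median 0.00863). Bola2, a partner in iron-sulfur cluster delivery, rose from 17.3 to 36.1 CPM (1.07, SE 0.09, adjusted p = 1.93e-07, edgeR), and the largest fall was that of Skp1, a subunit of the ubiquitin ligase that holds FBXL5 (-0.69, SE 0.13, adjusted p = 0.000439).

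Heme genes also went both ways. In heme synthesis 4 of 12 genes were called higher and 6 lower after CrOE EVs (median log2 fold change -0.38). Cpox, coproporphyrinogen oxidase, rose from 20.0 to 165 CPM (3.05, SE 0.06, adjusted p = 4.98e-13, edgeR), and it was at 21.7 and 21.6 CPM after shCon and shCr EVs. Tspo, a mitochondrial outer membrane protein, had the largest fall (-1.20, SE 0.09, adjusted p = 5.35e-08, edgeR). In heme breakdown and transport 5 of 13 were called higher and 5 lower (median -0.00910). Hmox1, heme oxygenase 1, which frees iron from heme, was at 271, 297 and 276 CPM in untreated replicates 1 to 3 and at 985, 1085 and 1064 CPM after CrOE EVs. No library of any other group was above 366 CPM. Lrp1, the receptor for heme bound to hemopexin, had the largest fall after CrOE EVs, from 1256 to 417 CPM (-1.59, SE 0.12, adjusted p = 7.34e-08, edgeR). The log2 fold changes of Hmox1 were 1.89 after CrOE EVs (SE 0.06, adjusted p = 1.12e-11, edgeR), 0.27 after shCon EVs (SE 0.06, adjusted p = 0.00257) and 0.33 after shCr EVs (SE 0.06, adjusted p = 0.000607). Slc48a1, a heme importer, had the largest rise of the list after shCon EVs (0.62, adjusted p = 6.66e-07, edgeR) and after shCr EVs (0.57, adjusted p = 1.31e-06).

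**Figure D4:**
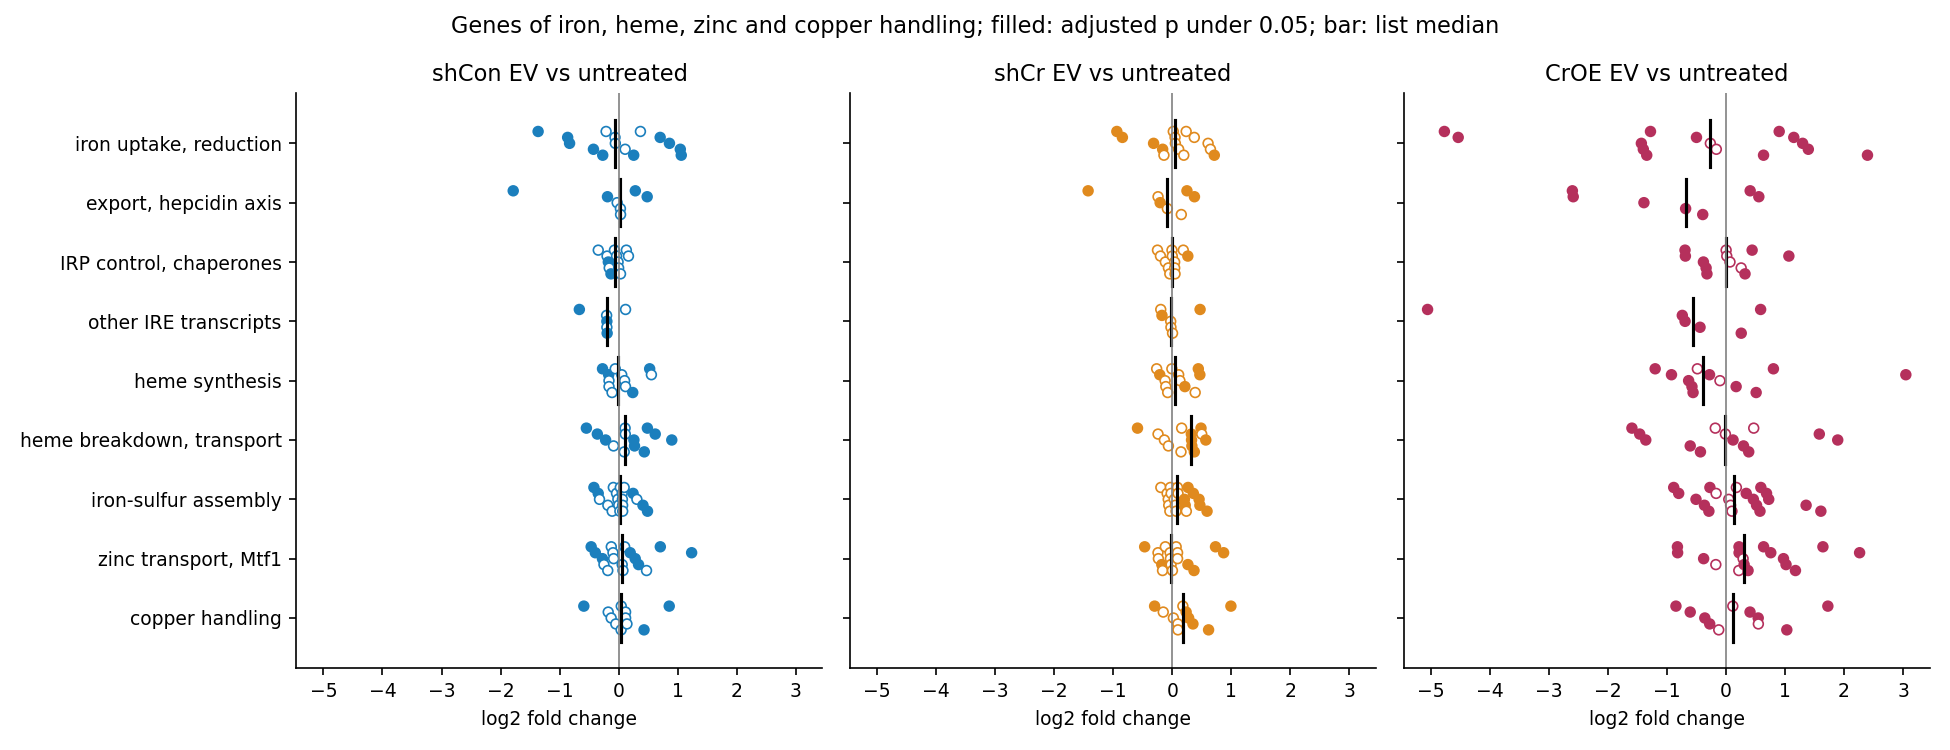
Log2 fold change against untreated cells (x axes) of tested genes in 9 lists of metal handling (y axis) after shCon, shCr and CrOE EVs. Each point is a gene, filled where its adjusted p was under 0.05, and the bar is the list median; after CrOE EVs the points spread from -5.05 (Epas1) to 3.05 (Cpox) with medians between -0.68 and 0.31.

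Zinc transport had the highest median of the 9 lists after CrOE EVs, opposite in sign to the metallothioneins. Of 17 tested genes 11 were called higher and 3 lower (median log2 fold change 0.31). Slc39a6, the zinc importer ZIP6, rose from 87.5 to 420.04 CPM (2.26, SE 0.05, adjusted p = 3.79e-13, edgeR), and the largest fall was that of Slc39a13 (-0.82, SE 0.13, adjusted p = 8.19e-05). Iron-sulfur assembly had 9 of 20 genes called higher and 6 lower (median 0.14), with the largest rise in Ciapin1 (1.61, SE 0.05, adjusted p = 1.62e-11) and the largest fall in Iscu, the scaffold protein (-0.88, SE 0.07, adjusted p = 5.16e-08). Copper handling had 4 of 11 called higher and 4 lower (median 0.12), with the largest rise in Sco2 (1.73, SE 0.08, adjusted p = 7.23e-10) and the largest fall in Atox1 (-0.85, SE 0.09, adjusted p = 2.42e-06).

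Levels of different genes were compared per kilobase of the longest coding transcript in GENCODE M21. In untreated cells Fth1 was highest at 2932 ± 29.5 CPM per kilobase (SD, n = 3), followed by Ftl1 at 1888 ± 115, Mt1 at 331 ± 24.8 and Mt2 at 202 ± 10.3. Slc11a2 (43.0 ± 1.84), Slc39a14 (38.2 ± 0.138), Ncoa4 (29.6 ± 2.40), Ireb2 (17.2 ± 2.00) and Tfrc (7.50 ± 0.485) followed, and Slc40a1 was lowest at 0.584 ± 0.0275. After CrOE EVs Ftl1 stood above Fth1, at 4272 ± 220 against 2020 ± 144 CPM per kilobase. Tfrc, at 41.2 ± 1.75, then stood above Slc39a14 (18.2 ± 0.736), Ncoa4 (28.7 ± 0.658) and Ireb2 (22.8 ± 0.729).

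The genes most like 3 of the members were read from Pearson's r of log2 CPM over the 12 libraries, among 11544 genes. The 12 points fall into 4 groups, so r mostly reflects the order of 4 group means and is given as a description. For Slc40a1 they were Hsp90ab1 (r = 0.97), Fam101b (0.95) and Exoc6 (0.94). Their spans differ, since Hsp90ab1 was at 2483 ± 55.4 and 2919 ± 33.4 CPM in untreated and shCon EV cells (SD, n = 3), and Fam101b at 1.66 ± 0.335 and 5.69 ± 0.612 CPM. For Mt1 they were Adm (0.997), Nfkbia (0.996) and Mapre2 (0.996). Adm was at 34.9 ± 1.37, 24.2 ± 1.86, 45.5 ± 2.63 and 4.82 ± 0.692 CPM in untreated, shCon EV, shCr EV and CrOE EV cells. For Tfrc they were Eif5 (0.998), Ppip5k2 (0.998) and Oxsr1 (0.998). Ppip5k2 was at 37.99 ± 1.54, 44.2 ± 1.58, 37.5 ± 2.12 and 147 ± 6.25 CPM in the same order.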

How the data were processed

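Bulk RNA of 12 libraries was analysed. The libraries kept strand and used poly(A) selection, per the labels' protocols. The authors deposited estimated counts per gene symbol, with no scaling between libraries; 39.8% of values were not whole. The submitters' processing notes name featureCounts and mm39, with no role. Annotation, strand use and treatment of reads that match several genes are not given in the sources used here. In 27 rows, at most 0.259% of a library, the symbol had become a date, and none is named.

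Values were rounded to whole numbers, and genes were kept by filterByExpr. TMM scaling and edgeR 4.0.16 (R 4.3.3), quasi-likelihood F-test, were applied to all 12 libraries with a mean per group (8 residual degrees of freedom). Benjamini-Hochberg adjustment covered 14279 genes. Standard errors came from the F statistic, and intervals from t with 8 degrees of freedom. The test was tried on simulated counts for CrOE EVs against untreated cells, with 13753 genes tested. It recovered 51 of 67 genes changed 1.5-fold, 60 of 67 changed 2-fold and 66 of 66 changed 4-fold, with 9 false calls. Only these genes were changed in the simulation, while 73.7% of all genes were called in the data. The simulated rates therefore do not carry over to a comparison with so many changes. The members and lists were chosen with earlier results of these data known. From each list, at most the largest rise and fall against untreated cells were named (all of those with CrOE EVs), among calls without overlap whose average log2 CPM reached 1, and Hmox1, Mtf1, Slc30a1, Aco1 and Fbxl5 always. Genes like a member were the 3 with the highest r for Slc40a1, Mt1 and Tfrc. Of the listed genes, all were in the table, 7 of them under an older symbol. Alternatives were other scalings (median-of-ratios, total counts, upper quartile), DESeq2 1.42.0, other filters, 2-group models, a replicate block, a 2-fold threshold and each library left out. GENCODE and RefSeq coordinates are GRCm38, not the build named for the counts.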

Additional observations from a re-analysis of the deposited data

Results flagged for a closer look

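The effect of CrOE EVs against untreated cells differed from that of shCon EVs, by the direct contrast in edgeR's quasi-likelihood test, for 7 members. The difference in log2 fold change (CrOE minus shCon) was 2.22 for Tfrc, 0.698 for Ftl1, 0.494 for Ireb2, -0.24 for Fth1, -0.262 for Slc39a14, -1.16 for Mt1 and -1.02 for Mt2. From shCr EVs it differed for 6 members, with 2.42 for Tfrc, 0.572 for Ftl1, 0.529 for Ireb2, -0.538 for Fth1, -1.57 for Mt1 and -1.09 for Mt2. In these comparisons 72.6% and 73.9% of all genes tested were called. Slc40a1 was not tested here, as its choice rested on shCon and shCr EV libraries.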

How the results depend on the processing

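Depth was lowest for Slc40a1, which had 49 to 56 counts in untreated libraries. Under the alternatives tried every call of a member kept its direction, and calls were lost only with a fold change of at least 2. Of the 9 members tested, which leaves out Slc40a1, that threshold left 0 called after shCon EVs and 1 after shCr EVs. It left 3 of 9 for CrOE against shCon EVs and 3 of 9 against shCr EVs. The count after CrOE EVs against untreated cells was 9 under the other settings and 6 with that threshold. With a library left out, members called ranged from 5 to 6 after shCon EVs and from 3 to 5 after shCr EVs. The count of 5 came without untreated replicate 2 or without shCr EV replicate 1. Called genes of the 9 lists ranged from 39 to 60, 36 to 56 and 86 to 94 after shCon, shCr and CrOE EVs. The call of Tfrc after shCon EVs was gained with total counts (adjusted p = 0.0492), upper-quartile scaling (0.0367), no filter (0.048), a floor of 10 counts per library (0.0437), DESeq2 (0.0397) and a model of the 2 groups (0.00878). It was not gained with median-of-ratios factors. The fall of Mt2 after shCon EVs was gained in the 2-group model (0.0257). Fth1 after shCr EVs, at about 0 and never a call, changed sign: its log2 fold change was -0.005008 with median-of-ratios factors, -0.01185 with total counts, -0.006142 with no filter, -0.004278 with that floor, -0.003868 in the 2-group model and -0.005014 with DESeq2. With a library left out it ranged from -0.0371 to 0.02964, and Tfrc after shCr EVs, also no call, from -0.08439 to 0.1343. The cause was not tested.

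Replicate numbers showed no clear pairing of the libraries. Of 18 pairs with the same number in different groups, 5 had deviations correlated over 0.1, with a median of 0.00498. Among 36 pairs with different numbers in different groups there were 7, with a median of 0.00354. With the replicate block, 6, 3 and 9 members were called after shCon, shCr and CrOE EVs, 7 and 6 for CrOE against shCon and shCr EVs, and 54, 45 and 92 genes of the lists. The block added the call of Tfrc after shCon EVs (adjusted p = 0.0458, edgeR).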
